A study of Homo sapiens with 36 samples.

Results

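The 4 chromosome 19 intervals that hold its large clusters of zinc finger genes were examined for CTCF occupancy after knockdown of NuRD subunits. The intervals were set by position in the hg19 build. No measured value entered their definition, but they were chosen with earlier results of these data known. They run on chromosome 19 from 19800000 to 24500000 (called here the short-arm interval), from 35000000 to 38500000 (proximal long-arm), from 44300000 to 45000000 (middle long-arm) and from 52000000 to 59100000 (distal long-arm). Together they cover 16.0 Mb, 27.1% of the 59.057 Mb that any peak of the chromosome spans. Peaks overlapping them numbered 203 of 34319 with siCHD3, 124 of 25358 with siCHD4, 128 of 31451 with siCHD5, 130 of 26087 with siMBD2, 134 of 25848 with siMBD3 and 164 of 36270 with siNC. After overlapping or touching peaks of the 6 lists were joined, the intervals held 305 merged regions of 54382 in all. The remaining 43.057 Mb of chromosome 19, with 1644 merged regions, served as the comparison.

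The cells were HEK293T, an established human embryonic kidney line, transfected with small interfering RNA named siCHD3, siCHD4, siCHD5, siMBD2, siMBD3 or siNC, the control. CTCF was mapped by chromatin immunoprecipitation and sequencing in 18 immunoprecipitates and 18 inputs, 3 of each per condition, and all groups are the same transfected line. Each condition had 1 peak list in which its 3 replicates were pooled, so no spread between replicates exists, no test between conditions was possible and every comparison is between these lists. Loss of the targeted proteins, gene expression and the genes at each peak were not analysed here.

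CTCF is a DNA-binding protein with an array of zinc fingers that holds the anchors of chromatin loops and separates neighbouring domains. CHD3, CHD4 and CHD5 are ATP-dependent nucleosome remodellers of the NuRD complex, MBD2 binds methylated CpG sites, and MBD3 is its related NuRD subunit that binds methylated DNA poorly. The zinc finger genes of chromosome 19 arose by repeated local duplication, and most encode KRAB repressors, which recruit KAP1 (TRIM28) to silence transposable elements. The clusters themselves are often covered by heterochromatin. In RefSeq (GRCh38.p14), used only for symbols and gene order, 250 of the 1451 protein-coding genes of chromosome 19 have a symbol beginning with ZNF (17.2%), against 267 of 18586 on the other chromosomes (1.44%). Of these genes, 226 lie directly beside another one on chromosome 19 (90.4%), against 118 on the other chromosomes (44.2%). Which of them fall in the 4 hg19 intervals was not analysed here.

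The clusters were poor in CTCF peaks relative to the rest of their chromosome in all 6 lists. Density was 12.7 peaks per Mb in the clusters against 26.2 in the rest of chromosome 19 with siCHD3, 7.75 against 18.6 with siCHD4 and 8 against 21.3 with siCHD5. It was 8.12 against 19.3 with siMBD2, 8.37 against 20.5 with siMBD3 and 10.2 against 25.6 with siNC. The cluster density was thus 0.375 (siCHD5) to 0.485 times (siCHD3) that of the rest. The contrast is with a peak-rich chromosome: the other chromosomes carried 8.45 (siCHD4) to 12.1 peaks per Mb (siNC), and the clusters lay at 0.761 (siCHD5) to 1.11 times (siCHD3) that level. Lengths include assembly gaps. The rest of the chromosome contained a stretch of 3232 kb without a peak in any list, next to the short-arm interval, and leaving it out raised the density of the rest to between 20.1 (siCHD4) and 28.3 peaks per Mb (siCHD3).

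**Figure D1:**
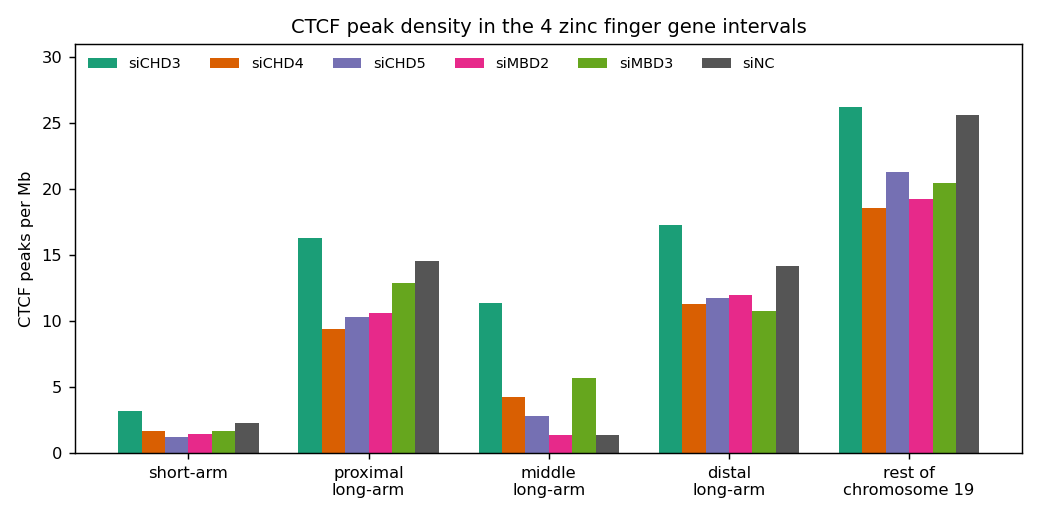
CTCF peaks per Mb (vertical axis, linear from 0) in each of the 4 intervals and in the rest of chromosome 19, with 1 bar for each pooled peak list; no error bars are drawn because replicates were pooled. Every bar of the 4 intervals is lower than the bar of the same list in the rest of the chromosome, and the short-arm interval has the lowest bar with siCHD3, siCHD4, siCHD5 and siMBD3, and the middle one with siMBD2 and siNC.

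The depletion was uneven between the intervals. The short-arm interval held 15 peaks with siCHD3, 8 with siCHD4, 6 with siCHD5, 7 with siMBD2, 8 with siMBD3 and 11 with siNC, which for the control is 2.34 peaks per Mb. The proximal long-arm interval held 57, 33, 36, 37 and 45 peaks in the siCHD3, siCHD4, siCHD5, siMBD2 and siMBD3 lists and 51 with siNC (14.6 per Mb). The distal long-arm interval held 123, 80, 84, 85 and 77 peaks in the knockdown lists, in that order, and 101 with siNC (14.2 per Mb). The middle long-arm interval held 8 peaks with siCHD3, 3 with siCHD4, 2 with siCHD5, 1 with siMBD2, 4 with siMBD3 and 1 with siNC. Within the short-arm interval, no list had a peak from 20370315 to 21365464, a stretch of 995 kb. The longest stretch without a peak in any list was 271 kb in the proximal long-arm interval, 175 kb in the middle one and 333 kb in the distal one. Peaks were also uneven within an interval. In the proximal one siNC had 13 peaks from 36000000 to 36499999 and 1 from 37000000 to 37499999. In the distal one it had 15 from 54500000 to 54999999 and 1 from 57000000 to 57499999. Which of these stretches hold zinc finger genes was not analysed, so a cluster peak need not lie among such genes.

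**Figure D2:**
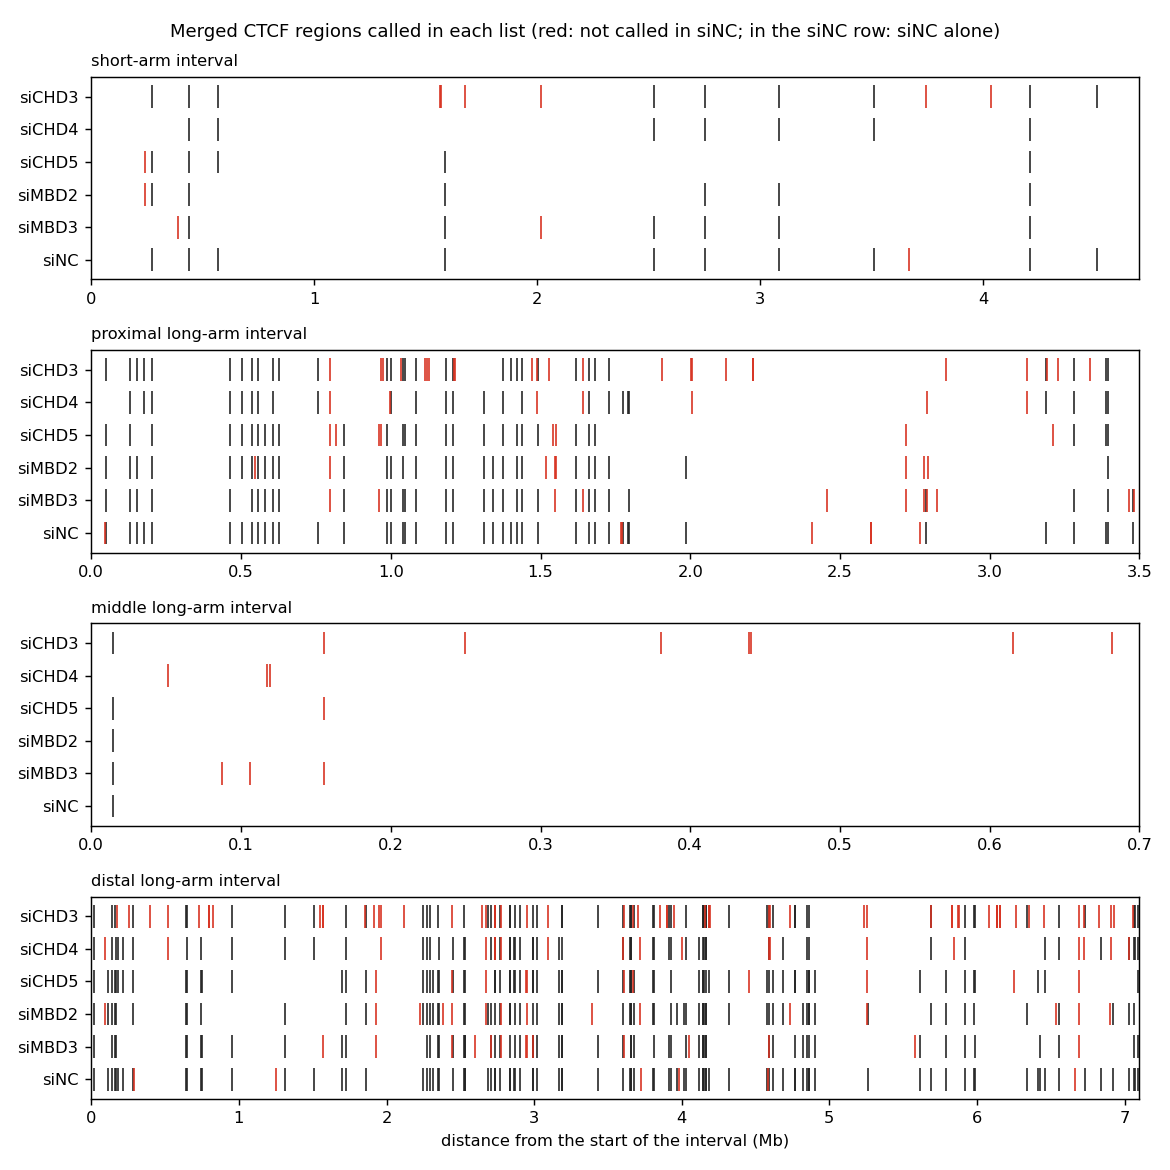
Merged CTCF regions called in each pooled list (rows), plotted by distance in Mb from the start of each interval (horizontal axes, different scales); red marks are regions with no siNC call, or in the siNC row regions called in siNC alone. Peaks are sparse over the short-arm interval and the later part of the proximal one, and red marks are most numerous in the siCHD3 row.

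Peaks in the clusters also stood farther apart. The median distance from a siNC peak to its nearest neighbour was 20 kb in the clusters and 8.59 kb in the rest of the chromosome. A neighbour within 10 kb was present for 33.5% of siNC cluster peaks, against 53.5% elsewhere on the chromosome. The same held in the 5 knockdown lists, where that share was 41.4% against 57.5% for siCHD3, 36.3% against 45.9% for siCHD4, 32.8% against 48.4% for siCHD5, 23.1% against 44.9% for siMBD2 and 29.9% against 45.7% for siMBD3. At the borders, the nearest siNC peaks were 46.6 kb inside and 7.39 kb outside the start of the proximal interval (folds 3.8 and 4.93), and 18.3 kb inside and 23.6 kb outside the start of the distal interval (folds 7.48 and 6.99). At the start of the short-arm interval they were 270 kb inside and 45.2 kb outside (folds 5.55 and 5.58), and at the start of the middle interval 14.1 kb inside and 10.3 kb outside (folds 4.48 and 6.02).

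Where CTCF was called in the clusters, its median enrichment lay above that of the rest of the chromosome in some lists and below it in others. The fold is the authors' ratio of signal at the summit to local background and is used within a list only. Median fold was 5.71 in the clusters against 6.52 in the rest of chromosome 19 with siCHD3, 5.24 against 5.11 with siCHD4, 7 against 6.54 with siCHD5, 6.73 against 6.58 with siMBD2, 6.48 against 6.88 with siMBD3 and 5.55 against 5 with siNC. Median peak width in the clusters was 236 bp (siMBD3) to 304 bp (siNC), against 250 bp and 296 bp in the rest for the same lists.

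Coverage beneath the peaks differed between clusters and rest. The local background beneath each summit, solved from the deposited fold and p of the peak, was lower in the clusters in all 6 lists. Its median was 0.575 fragments per bp in the clusters against 1.2 in the rest for siCHD3, 2.02 against 4.17 with siCHD4, 4.62 against 6.05 with siCHD5, 1.42 against 2.25 with siMBD2, 0.863 against 1.44 with siMBD3 and 6.75 against 10.7 with siNC. The lists also differed in depth, read here and below from the lowest background of a list and not from read depth per sample. This floor was 0.445 with siCHD3, 1.06 with siCHD4, 1.95 with siCHD5, 0.64 with siMBD2, 0.374 with siMBD3 and 2.96 with siNC. The siNC floor was thus 7.92 times that of siMBD3. A peak not called therefore means only that it did not pass the threshold at the depth of that list. Shares below carry exact Clopper-Pearson 95% intervals, which cover counting error only.

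Of the 164 siNC peaks in the clusters, between 57 and 71 were absent from each knockdown list, and the share was above that of the rest of the chromosome in every list. A siNC peak is called missing where no knockdown peak overlaps it by 1 bp. The siCHD3 list lacked 57 (34.8%, interval 27.5 to 42.6), against 29.6% of the 1101 siNC peaks in the rest of chromosome 19 and 35.4% of all siNC peaks. The siCHD4 list lacked 71 (43.3%, interval 35.6 to 51.2), against 38% in the rest and 41.5% of all. The siMBD2 list lacked 58 (35.4%, interval 28.1 to 43.2), against 32.4% in the rest and 34.9% of all. The siMBD3 list lacked 61 (37.2%, interval 29.8 to 45.1), against 32% in the rest and 38.5% of all. In these 4 lists the cluster share exceeded that of the rest by 5.15, 5.33, 2.94 and 5.22 percentage points (siCHD3, siCHD4, siMBD2, siMBD3), and each counting interval of the difference included 0. The cluster shares lay within 2 points of the share over all siNC peaks.

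The siCHD5 list, the deepest of the knockdown lists, had the largest difference between clusters and rest among the 5 lists. It lacked 57 siNC cluster peaks (34.8%, interval 27.5 to 42.6), against 262 peaks in the rest of chromosome 19 (23.8%, interval 21.3 to 26.4) and 21.5% of all siNC peaks. The difference between clusters and rest was 11 points, with a counting interval of 3.62 to 18.9. By interval, 6 of 11 short-arm peaks, 23 of 51 proximal peaks (45.1%, interval 31.1 to 59.7) and 28 of 101 distal peaks (27.7%, interval 19.3 to 37.5) were missing, while the single siNC peak of the middle interval was retained. Local background moved with this result. Among siNC peaks at or below the list's median background of 10.3, 46.9% of cluster peaks and 44.8% of those in the rest were missing in siCHD5. Above that median the shares were 7.84% and 4.84%. The clusters had 113 of their 164 siNC peaks at or below that median, against 522 of 1101 in the rest. With cluster peaks weighted to the background of the rest, 20.6% of cluster peaks were missing against 23.8% in the rest, a difference of -3.16 points. The sign of this weighted difference is opposite to that within both classes above, and it carries no counting interval. The same weighting gave differences of -3.35 points with siCHD3, 1.48 with siCHD4, -9.91 with siMBD2 and -6.84 with siMBD3. In these other lists, the missing share at or below the median background was 42.5% in the clusters against 44.3% in the rest for siCHD3, 48.7% against 51.7% for siCHD4, 46.9% against 54.4% for siMBD2 and 46% against 51.3% for siMBD3. Above that median it was 17.6% against 16.4% for siCHD3, 31.4% against 25.6% for siCHD4, 9.8% against 12.6% for siMBD2 and 17.6% against 14.5% for siMBD3.

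Depth was also set against the missing peaks. When each siNC peak was weighted by its chance of being called at the coverage of the knockdown list, the missing share was 28.9% in the clusters against 22.6% in the rest for siCHD3, 42.7% against 34.4% for siCHD4 and 31.9% against 22% for siCHD5. It was 27.2% against 23.2% for siMBD2 and 23.8% against 20.1% for siMBD3. The cluster share was above that of the rest in all 5 lists. From coverage alone, the same chances gave an expected missing share that was also higher in the clusters, at 37.4% against 33.7% for siCHD3, 14.7% against 11.9% for siCHD4, 4.73% against 2.77% for siCHD5, 28.1% against 24.5% for siMBD2 and 47% against 42.8% for siMBD3. For siCHD3 and siMBD3 these values exceeded the observed shares of 34.8% and 37.2% in the clusters, and those of 29.6% and 32% in the rest. The weighted shares rest on the same chances.

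Peaks of the knockdown lists with no overlapping siNC peak, called added, made up a larger share in the clusters than in the rest of the chromosome in all 5 lists. The siCHD3 list had 98 added peaks among its 203 cluster peaks (48.3%, interval 41.2 to 55.4), against 31.7% in the rest and 32.6% of its whole list, a difference between clusters and rest of 16.6 points (counting interval 9.25 to 23.9). In siCHD4, 31 of 124 were added (25%, interval 17.7 to 33.6), against 14.6% in the rest and 16.8% of the list. In siCHD5, 21 of 128 were added (16.4%, interval 10.5 to 24), against 8.6% in the rest and 9.41% of the list. In siMBD2, 24 of 130 were added (18.5%, interval 12.2 to 26.2), against 10.3% in the rest and 9.3% of the list. In siMBD3, 30 of 134 were added (22.4%, interval 15.6 to 30.4), against 14.6% in the rest and 13.4% of the list. All 5 sets of added peaks were defined against the same siNC list.

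**Figure D3:**
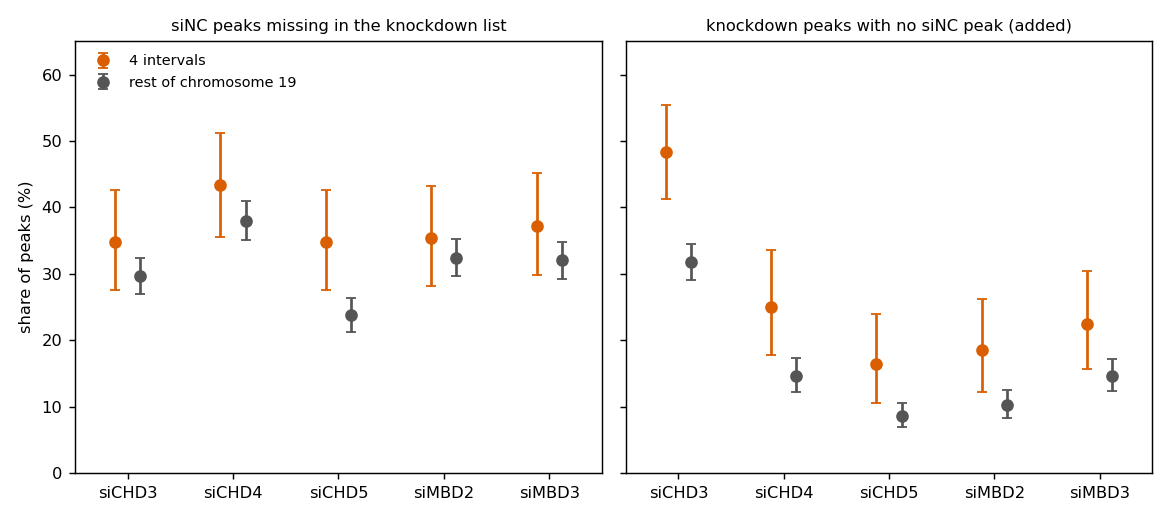
Share in percent of siNC peaks missing in each knockdown list (left) and of knockdown peaks with no siNC peak (right), for the 4 intervals (orange) and the rest of chromosome 19 (grey), with exact 95% counting intervals as bars. The orange points lie above the grey ones throughout, with the widest gaps for siCHD5 on the left and siCHD3 on the right.

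The added siCHD3 peaks of the clusters had a median fold of 4.85, against 6.86 for the cluster peaks with a siNC partner, and a median background of 0.445, the floor of that list, against 1.1. Added siCHD3 peaks in the rest of the chromosome had the same medians, 4.85 and 0.445. These calls rest on few fragments. Over all siCHD3 peaks, the median number of fragments at the summit was 9 in the clusters against 16 in the rest of the chromosome. The share of peaks with background at the floor was 40.4% against 22.3%. When the siCHD3 list was divided into 3 classes of equal size by fold, 60 of the 81 cluster peaks in the weakest class were added (74.1%, against 62.8% in the rest of the chromosome). The middle class had 30 of 68 (44.1%, interval 32.1 to 56.7), against 23.4% in the rest (interval 19.3 to 28), and the strongest 8 of 54 (14.8%, against 14.5%). Within a class of local background, the counting intervals of clusters and rest overlapped in every list, which is not a test of their difference. The cluster share was still the higher in every list at or below the median, and above it in every list but siMBD3. At or below the median background, 62.2% of siCHD3 cluster peaks were added against 59.8% in the rest, 31.9% against 28.3% for siCHD4, 20.7% against 13.7% for siCHD5, 23.5% against 18.3% for siMBD2 and 30.6% against 26.2% for siMBD3. Above it the shares were 10.9% against 5.34% for siCHD3, 3.33% against 2.15% for siCHD4, 7.32% against 3.96% for siCHD5, 3.12% against 2.17% for siMBD2 and 0% against 2.97% for siMBD3. The 0% is 0 of 36 peaks. With cluster peaks weighted to the background of the rest, the excess of 16.6 points in siCHD3 was 1.77 points, that of siCHD5 was 2.98 and that of siMBD2 was 1.38, while the differences of siCHD4 and siMBD3 were -0.582 and -2.5. For siCHD4 this sign is opposite to that within both classes above, and the weighted differences carry no counting interval.

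**Figure D4:**
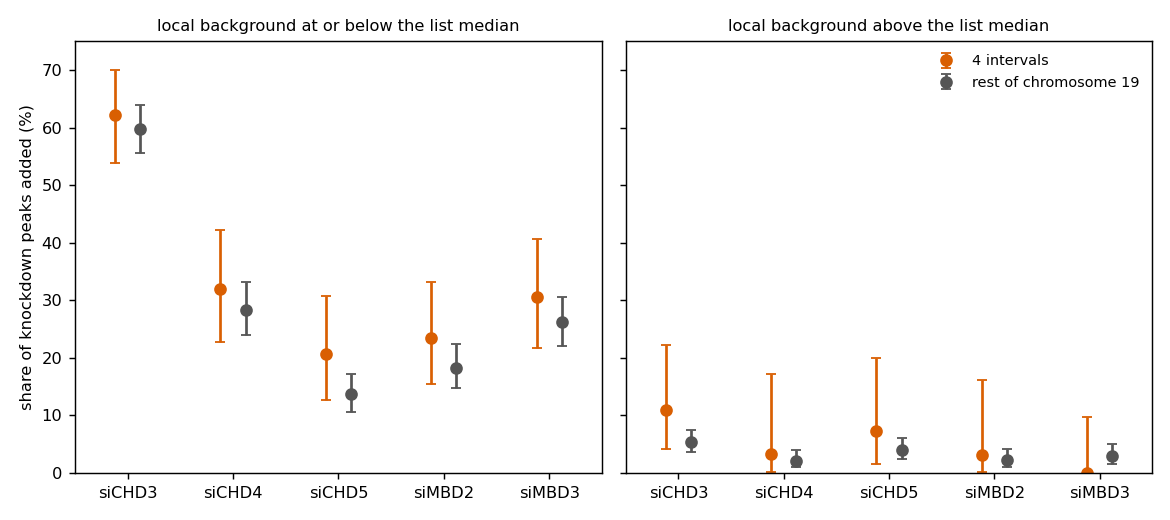
Share in percent of knockdown peaks with no siNC peak, for peaks whose local background was at or below the median of their list (left) and above it (right), in the 4 intervals (orange) and the rest of chromosome 19 (grey), with exact 95% counting intervals as bars. Orange and grey intervals overlap for every list in both panels, which is not a test of their difference.

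Among the merged regions, fewer were shared by all lists in the clusters. All 6 lists called 41 of the 305 cluster regions (13.4%, interval 9.82 to 17.8), against 403 of 1644 in the rest of chromosome 19 (24.5%) and 21.7% of all regions. A single list called 121 cluster regions (39.7%), against 30% in the rest and 31.6% of all. The siCHD3 list alone called 72 of them (23.6%), against 15.2% in the rest and 14.7% of all, and their median fold of 4.15 was below the 6.23 of that list. siCHD4 alone called 9 (2.95%, against 2.63% of all regions), siCHD5 alone 5 (1.64%, against 2.91%), siMBD2 alone 8 (2.62%, against 2.38%) and siMBD3 alone 13 (4.26%, against 3.69%). siNC alone called 14 (4.59%, against 5.11% in the rest and 5.3% of all). Of the 164 siNC cluster peaks, 41 had a partner in all 5 knockdown lists (25%, against 36.5% in the rest and 32.6% of all siNC peaks). A further 14 had a partner in none (8.54%, against 7.63% in the rest and 7.95% of all siNC peaks).

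Retained peaks overlap their siNC partner by definition, which bounds the distance between summits. The median distance from the summit of a retained siNC cluster peak to the nearest summit of the knockdown list was 7 bp (siCHD5) to 16 bp (siCHD3). It was within 100 bp for 88.8% of retained cluster peaks in siCHD3, against 95.7% in the rest of the chromosome, and for 92.2% to 97.2% in the other lists.

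The strongest siNC peak of the clusters lay in the distal interval, on chromosome 19 from 55185505 to 55185848. Its fold was 10.3 with siCHD3, 15.1 with siCHD5, 8.37 with siMBD2, 11 with siMBD3 and 13.8 with siNC, and the siCHD4 list had no overlapping peak. The next, in the short-arm interval from 20235799 to 20236243, had folds of 77.3 with siCHD3, 38.3 with siCHD4, 5.44 with siCHD5, 8.98 with siMBD2, 17.8 with siMBD3 and 13.5 with siNC. It was called in all 6 lists and was the strongest cluster peak of siCHD3 and siCHD4. The next after it, from 56683235 to 56683564 in the distal interval, had folds of 7.63 with siCHD4, 7.29 with siCHD5, 7.26 with siMBD2 and 12.7 with siNC, and was not called in siCHD3 or siMBD3. The strongest siNC peak of the proximal interval, from 35203596 to 35203908, was called in all lists, with folds of 5.2, 4.6, 7.86, 9.52 and 7.17 with siCHD3, siCHD4, siCHD5, siMBD2 and siMBD3 and 8.41 with siNC. The one siNC peak of the middle interval, from 44313943 to 44314261, had folds of 4.33 with siCHD3, 8.34 with siCHD5, 6.75 with siMBD2, 6.72 with siMBD3 and 4.48 with siNC, and was not called in siCHD4.

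No knockdown list had a peak within 1 kb of 13 siNC cluster peaks (7.93%), against 6.9% of those in the rest of the chromosome and 7.42% of all. The strongest of these, in the distal interval from 55979217 to 55979678, had a siNC fold of 9.53, and 3.54% of the siNC list had a higher fold. The second, from 58666508 to 58666712, had a fold of 6.82, and the third, in the short-arm interval from 23466844 to 23467039, a fold of 6.06. The backgrounds of these peaks were 3.2, 2.96 and 2.96, at or near the floor of the siNC list.

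Conversely, 2 cluster regions were common to the 5 knockdown lists without a siNC call (0.656%), against 5 in the rest of the chromosome (0.304%) and 0.0846% of all regions. The first, in the proximal interval from 35797595 to 35797916, had folds of 6.21 with siCHD3, 6.35 with siCHD4, 4.09 with siCHD5, 5.05 with siMBD2 and 5.48 with siMBD3. The second, in the distal interval from 58693253 to 58693643, had folds of 3.99, 4.73, 7.11, 4.49 and 5.75 in the same lists. At least 3 knockdown lists and not siNC called 13 cluster regions (4.26%), against 47 in the rest (2.86%) and 1.91% of all. Among them was the strongest added peak of siCHD3 and siCHD4, from 36640737 to 36641141, with folds of 13.8 with siCHD3, 10.7 with siCHD4 and 4.44 with siMBD3. The region from 54445455 to 54445768 had folds of 7.9 with siCHD3, 6.86 with siCHD5, 7.79 with siMBD2 and 11.2 with siMBD3.

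The cluster regions with the highest siCHD3 folds, a set chosen after the values were seen and given without a test, lay in the short-arm and distal intervals. Of the 203 siCHD3 cluster peaks, 12 were in the strongest 5% of that list (fold of at least 15.6). They made up 5.91% of the cluster peaks, against 7.55% in the rest of chromosome 19. The short-arm interval held 4 of them among its 15 peaks and the distal interval 8 among 123, while the proximal and middle intervals held none of 57 and of 8. The weakest of the 12 had a siCHD3 fold of 17.1, and the strongest cluster peak below the threshold, in the proximal interval from 36438363 to 36438633, had 15.5. The siCHD4 and siNC lists called all 12, siCHD5 called 7, siMBD2 8 and siMBD3 9. The rest of the chromosome had 85 such regions, of which siCHD4 called 100%, siCHD5 61.2%, siMBD2 80%, siMBD3 92.9% and siNC 96.5%. Over the whole genome these shares were 98.8%, 59.8%, 71.1%, 87.8% and 95.7%. Of the 12, 8 were also in the strongest 5% of siCHD4, 3 in that of siMBD3, 6 in that of siNC and 0 in those of siCHD5 and siMBD2. Over the whole genome the shares also in the strongest 5% were 63.8% with siCHD4, 6.12% with siCHD5, 8.57% with siMBD2, 28.3% with siMBD3 and 25.5% with siNC. In the rest of chromosome 19 they were 58.8%, 21.2%, 23.5%, 35.3% and 22.4% in the same lists.

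**Figure D5:**
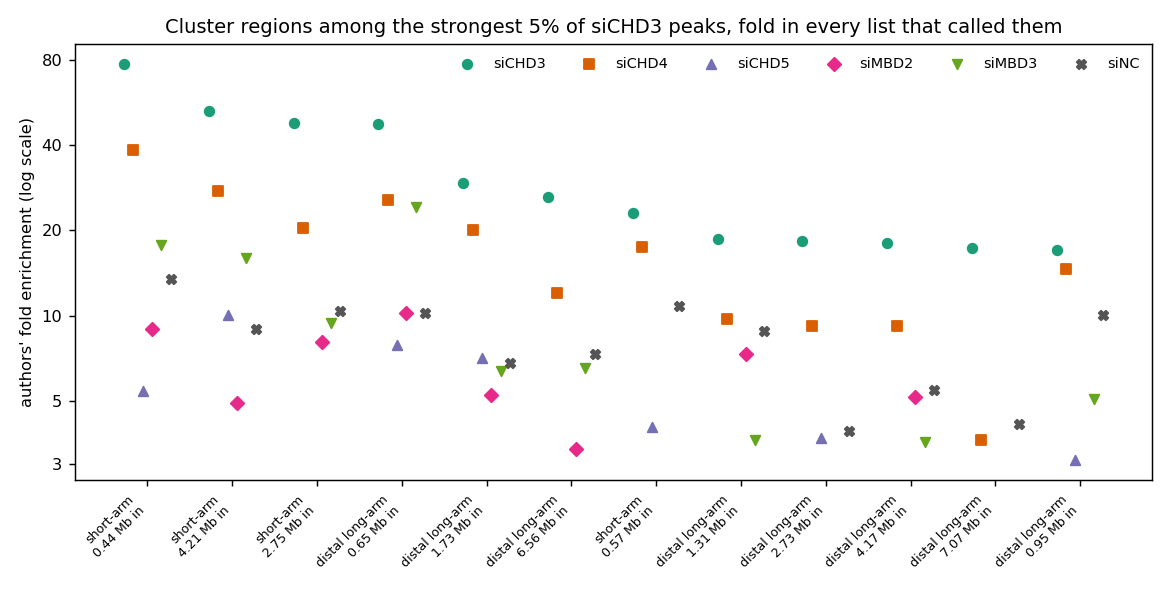
The authors' fold enrichment (log axis) of the 12 cluster regions in the strongest 5% of siCHD3 folds, in every list that called them; regions run in order of siCHD3 fold and are named by interval and distance from its start. All 12 have a siCHD3, a siCHD4 and a siNC marker, and siCHD5, siMBD2 or siMBD3 markers are absent for several.

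The 3 strongest after the short-arm region already described were these. The region from 24009883 to 24010883, in the short-arm interval, had folds of 52.5 with siCHD3, 27.6 with siCHD4, 10.1 with siCHD5, 4.93 with siMBD2, 16 with siMBD3 and 8.99 with siNC. The region from 22551412 to 22551789, in the same interval, had folds of 47.8 with siCHD3, 20.4 with siCHD4, 8.06 with siMBD2, 9.46 with siMBD3 and 10.4 with siNC, and was not called in siCHD5. The distal region from 52646256 to 52646563 had folds of 47.4 with siCHD3, 25.6 with siCHD4, 7.9 with siCHD5, 10.2 with siMBD2, 24.2 with siMBD3 and 10.2 with siNC. Across the 12, the median fold was 24.7 with siCHD3, 16 with siCHD4, 5.44 with siCHD5, 6.29 with siMBD2, 6.55 with siMBD3 and 8.91 with siNC, over the regions each list called. Folds are set side by side here and not compared, because lists differ in depth and background.

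A short-arm region from 21385742 to 21385992 differed from these in the lists that held it. It was called in siCHD5 (fold 11.5), siMBD2 (9.41), siMBD3 (5.89) and siNC (5.68), and in neither siCHD3 nor siCHD4. It was the strongest short-arm peak of siCHD5 and of siMBD2. This pattern of calls was not particular to it. The proximal regions from 35581386 to 35581729 and from 35843645 to 35844015 had the same pattern. So did the distal regions from 56904423 to 56904732 and from 57791252 to 57791606. The share of the pattern over all regions was not counted. Of the 11 siNC peaks of the short-arm interval, 9 were retained with siCHD3, 7 with siCHD4, 5 with siCHD5, 6 with siMBD2 and 6 with siMBD3. Over all siNC peaks, the retained shares were 64.6%, 58.5%, 78.5%, 65.1% and 61.5% in the same lists. Counting intervals for 11 peaks are wide, at 23.4% to 83.3% for the short-arm share missing in siCHD5. The siNC folds of the 2 retained in all 5 knockdown lists were 13.5 and 8.99, and siNC peaks of fold 10.8 (missing in siMBD2 and siMBD3) and 10.4 (missing in siCHD5) were not retained in all.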

How the data were processed

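CTCF ChIP-seq of 18 immunoprecipitates with 18 inputs was used as 6 deposited MACS2 narrow-peak lists, each naming 3 replicates called together. The submitters' processing notes name hg19, MACS2 2.1.2, Bowtie2 2.3.4, deepTools 3.5.0, bedtools 2.25.0, SAMtools 1.9 and FastQC 0.11.7. What each did, and with which settings, is not given in the sources used here. Each deposited peak carries the authors' fold enrichment (a linear ratio to local background), −log10 of p and of q, a summit position and a display score, which was not used. Read depth per sample was not used here.

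Lines with the same start and end were counted once, with the highest fold, on 23 chromosomes (1 to 22 and X). Peaks overlapping an interval by 1 bp are members. Positions are 1-based. Pileup and local background were recovered for 100% of peaks, to within 0.01% of the deposited p, with a Poisson tail for p and with 1 added to both terms of the fold. Computation used Python 3.11.15, numpy 2.4.6, scipy 1.17.1, pandas 2.3.3 and matplotlib 3.10.9. Overlap counting and the pileup solution were tested on simulated data. Differences between shares carry Newcombe 95% intervals, which cover counting error only.

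Named regions were the strongest siNC peak of each interval, the 10 strongest siNC peaks, the 5 strongest missing and 5 strongest added peaks per knockdown with no partner within 1 kb, the 10 strongest siNC peaks with no knockdown peak within 1 kb, and regions in all 5 knockdown lists but not siNC; the leading ones are printed. The regions named from 3 or 4 knockdown lists, the strongest siCHD3 regions and the short-arm region of siCHD5 and siMBD2 were named after their values were seen. The intervals, lists and rules were all chosen with earlier results of these data known. Alternatives covered the threshold (−log10 q of at least 10), overlap, list length, depth, fold, membership and comparison set. Weighting to local background, over background classes present in both clusters and rest, was added after the data were seen. Motif and gene content was not analysed here.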

Additional observations from a re-analysis of the deposited data

How the results depend on the processing

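No paired analysis was possible because each list pools its 3 replicates. Values here are percentage-point differences, clusters minus rest of chromosome 19. Of 151 alternative values for 11 differences, 138 kept within the counting interval of the reported value and its direction where called. Direction was not called for the missing differences of siCHD3, siCHD4, siMBD2 and siMBD3, whose intervals ran from negative to positive. The 138 thus include negative missing differences. With all other chromosomes as comparison it was -0.876 for siCHD3 and -1.53 for siMBD3, against 1.7 for siCHD4, 13.4 for siCHD5 and 0.351 for siMBD2. Without the proximal interval it was -0.567 for siMBD2. For regions shared by all 6 lists the difference ran from -12.3 to -10.5 over 6 alternatives, which did not include weighting to local background. The siCHD3 added difference was 3.65 with a −log10 q threshold of 10 on the siCHD3 list alone, and 8.81 when standardised to the fold of the rest. With that threshold in both lists, the missing difference was 16.3 for siCHD4 and 15.4 for siMBD3. Without the distal interval, the siCHD5 missing difference was 22.2. Weighting to local background turned the missing difference from 5.15 to -3.35 for siCHD3, from 2.94 to -9.91 for siMBD2 and from 5.22 to -6.84 for siMBD3. The same weighting moved the added difference to 1.77 for siCHD3 and 1.38 for siMBD2. It also turned the direction of the siCHD5 missing difference (-3.16) and of the added differences of siCHD4 (-0.582) and siMBD3 (-2.5). With background split only at the list median, the cluster share of siCHD5 missing peaks stayed higher in both classes (46.9% against 44.8%, 7.84% against 4.84%). The same held for siCHD4 added peaks (31.9% against 28.3%, 3.33% against 2.15%). These signs thus depend on how background was classed, and the weighted differences carry no counting interval. The cause was not tested. Depth weighting of added peaks was not run, because siNC is deeper than every knockdown list. Shallow lists limit what an uncalled peak shows.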
